A study of Mus musculus with 13 samples.

Results

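The genes described here are 38 genes of the cell cycle and mitosis, chosen by symbol from the 55487 gene IDs of a mouse RNA-seq count table. All 38 were matched and all 38 passed the filter on low counts, as did 18015 genes in total. RNA was sequenced from pacemaker cells (PC) of the sinoatrial node, the cells that set the heartbeat, and from right atrial cardiomyocytes (RACM), the neighbouring working muscle. Both were isolated by flow sorting from neonatal mouse hearts of the genotype Hcn4-GFP/Myh6-mCherry, in which reporters driven by a pacemaker channel gene and by a cardiac myosin gene mark the cells. The sort gates were not given in the sources used here. Tissue where the node meets the atrium was pooled from 8 to 10 hearts for each biological replicate. There were 3 PC and 3 RACM libraries, titled p0, p2 and p4 in each cell type, and 3 values per cell type are given in that order below. The labels give the stage of the RNA libraries as neonatal, and what the p number stands for was not given in the sources used here.

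A cell that divides copies its DNA in S phase and separates the copies in mitosis. D-type and E-type cyclins with their kinases release E2F factors at the end of G1, and these switch on genes for loading and firing replication origins and for making nucleotides. Later, a complex around B-Myb (Mybl2) and FoxM1 (Foxm1) switches on genes of G2 and mitosis, whose promoters often carry CCAAT boxes and a short element called the cell cycle genes homology region (CHR). In the mouse heart, muscle cells are known to leave the cell cycle soon after birth, while fibroblasts, endothelial cells and macrophages of the heart go on dividing. The 38 genes were read in 5 lists by role: 6 of G1 and the entry into S phase, 10 of S phase, 12 of G2 and mitosis, 6 of the spindle, kinetochore and checkpoint, and 4 of cytokinesis. The last 3 lists, 22 genes, are called mitotic below.

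Promoter windows are shown for 5 of the genes, because motif letters are counted by list in the next paragraph. Windows come from RefSeq (GRCm38.p6, the mm10 assembly) and run from 250 bases before to 50 bases after the annotated start. Of the 38 genes, 30 had a window. Ccnd1, Ccnd2, Ccne2, Mcm4, Ccna2, Aurkb, Foxm1 and Kif20a had none in the table. Capitals mark matches on either strand to CCAAT, to the CHR letters TTTGAA or TTCGAA, or to the E2F letters TTTCGCGC, TTTGGCGC or TTTCCCGC. Matches can overlap, as TTTCGCGC and TTTGGCGC do in Mcm5, and a CCAAT on each strand in Ube2c. Shown are Ube2c (chr2:164769679-164769978, plus strand), Ccnb2 (chr9:70421505-70421804, minus strand) and Cdk1 (chr10:69352863-69353162, minus strand) for mitosis, Mcm5 (chr8:75109259-75109558, plus strand) for S phase, and Mybl2 (chr2:163054385-163054684, plus strand), the gene that differed between the cell types.
Ube2c: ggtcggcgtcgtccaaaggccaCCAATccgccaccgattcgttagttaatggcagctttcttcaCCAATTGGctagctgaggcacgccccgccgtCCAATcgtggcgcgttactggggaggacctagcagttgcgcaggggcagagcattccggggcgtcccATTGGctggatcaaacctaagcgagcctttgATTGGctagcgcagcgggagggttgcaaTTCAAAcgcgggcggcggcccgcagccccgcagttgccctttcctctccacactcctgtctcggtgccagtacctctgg
Ccnb2: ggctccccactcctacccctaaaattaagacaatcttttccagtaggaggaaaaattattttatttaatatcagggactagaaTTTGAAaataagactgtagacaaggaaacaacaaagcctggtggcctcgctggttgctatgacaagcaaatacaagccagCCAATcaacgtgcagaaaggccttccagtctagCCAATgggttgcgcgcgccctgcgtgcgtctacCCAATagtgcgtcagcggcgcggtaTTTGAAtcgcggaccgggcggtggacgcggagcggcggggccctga
Cdk1: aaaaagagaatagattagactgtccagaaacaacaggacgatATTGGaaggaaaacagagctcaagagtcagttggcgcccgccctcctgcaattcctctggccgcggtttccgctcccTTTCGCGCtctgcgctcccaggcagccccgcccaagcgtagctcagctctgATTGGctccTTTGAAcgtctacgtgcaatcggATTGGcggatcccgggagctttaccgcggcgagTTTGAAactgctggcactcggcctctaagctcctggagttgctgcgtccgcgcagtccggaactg
Mcm5: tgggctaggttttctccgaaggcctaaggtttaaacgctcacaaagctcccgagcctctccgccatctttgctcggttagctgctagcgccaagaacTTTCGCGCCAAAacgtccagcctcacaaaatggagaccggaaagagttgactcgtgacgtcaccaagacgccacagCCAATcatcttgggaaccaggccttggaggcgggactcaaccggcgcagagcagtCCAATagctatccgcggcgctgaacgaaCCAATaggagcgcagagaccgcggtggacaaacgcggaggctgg
Mybl2: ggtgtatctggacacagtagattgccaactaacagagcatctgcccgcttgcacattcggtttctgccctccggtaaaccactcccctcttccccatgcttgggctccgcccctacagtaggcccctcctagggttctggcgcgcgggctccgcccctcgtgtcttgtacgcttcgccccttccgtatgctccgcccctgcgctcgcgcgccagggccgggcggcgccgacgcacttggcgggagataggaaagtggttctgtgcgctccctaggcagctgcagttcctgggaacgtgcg

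CHR letters were found in 14 of the 18 mitotic genes with a window, in 2 of 9 S phase genes and in 0 of 3 G1 genes, against 21.7% of all 27025 genes in the table, each counted once whatever its number of windows. CCAAT was found in 15 of 18 mitotic genes, 8 of 9 S phase genes and 1 of 3 G1 genes, against 41.1% of all genes. CCAAT and CHR letters stood together in 13 of 18 mitotic genes and 2 of 9 S phase genes, against 8.61% of all genes. E2F letters were found in 4 of 9 S phase genes, 2 of 18 mitotic genes and 1 of 3 G1 genes, against 2.12% of all genes. In Ube2c the CHR match began at position -29 and in Ccnb2 at positions -167 and 4, with 0 as the annotated start. The mitotic genes with a window but no CHR match were Ccnb1, Birc5, Cenpe and Mybl2, and the Mybl2 window held none of the letters searched. These are matches of letters in a fixed window, and binding was not measured here. Forms of the elements that differ from these letters were not searched, so a window without a match can still hold such a form.

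Single libraries stood apart for these genes. The RACM p4 library held the highest value of 33 of the 38 genes, against 19.7% of all genes tested, and the PC p2 library the lowest value of 26, against 21.3%. Total counts ran from 14141151 to 22290996 per library. Summed markers of pacemaker cells were between 3673 and 3883 CPM (counts relative to the library's total, scaled by TMM) in PC and between 69.2 and 98.0 CPM in RACM, in the direction of the labels, and none of the 6 was at 0 in PC. Markers of other cells were present and moved with the libraries. Of 8 fibroblast markers, the sum was 845, 958 and 2169 CPM in PC and 1596, 3679 and 10700 CPM in RACM. Of 9 macrophage and leukocyte markers, it was 22.5, 8.52 and 32.0 CPM in PC, where Ptprc and C1qa were at 0 in p2, and 137, 360 and 607 CPM in RACM. The sum of 6 cardiomyocyte markers was between 80430 and 94190 CPM in PC, and 82420, 85580 and 55310 CPM in RACM. Ttn was its largest part, at 36624, 55993 and 44549 CPM in PC. Of the 6, 2 were higher at p4 than at p0 in PC and 0 in RACM, with median folds of 0.81 and 0.66. In sorted pools, fewer cells of a type and less RNA per cell cannot be told apart.

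**Figure D1:**
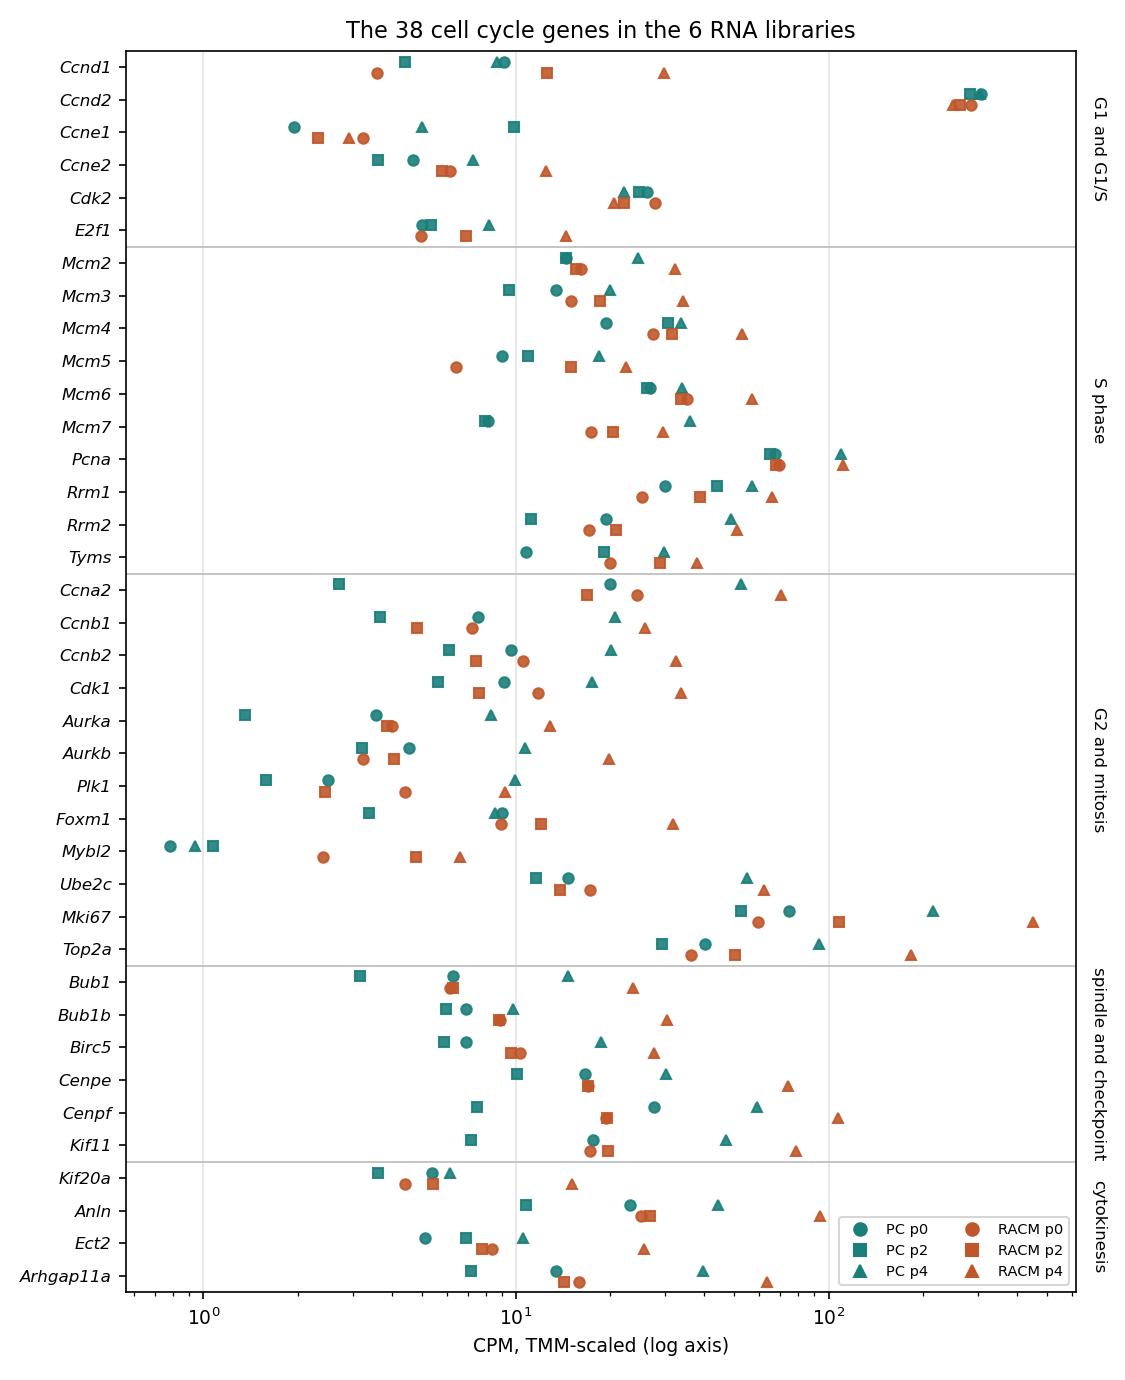
CPM (TMM-scaled, log axis) of each of the 38 genes in the 3 PC and 3 RACM libraries, 1 point per library, grouped by list. The triangles of p4 lie to the right in most rows, with RACM p4 highest for 33 genes, while the PC points of Mybl2 all lie left of its RACM points.

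The first comparison asked whether the cell cycle genes differ between pacemaker and atrial muscle cells. A single gene passed the test. Mybl2, which encodes the transcription factor B-Myb (ENSMUSG00000017861, mm10 chromosome 2 from 163054687 to 163084688, plus strand, 15 exon blocks), was at 0.779, 1.07 and 0.943 CPM in PC and at 2.41, 4.77 and 6.62 CPM in RACM. Each RACM library was above each PC library, a separation that 1 of the 38 genes showed, against 13.4% of all genes tested. Its log2 difference, PC minus RACM, was -2.30 ± 0.55 (SE, edgeR quasi-likelihood test, adjusted p = 0.0397). These values rest on 14, 19 and 20 counts in PC and on 35, 80 and 138 in RACM. The call was lost when any 1 of the PC libraries was left out (adjusted p = 0.118, 0.0756 and 0.0799 for p0, p2 and p4), and likewise for RACM p2 (adjusted p = 0.147) and RACM p4 (adjusted p = 0.192), and over its alternatives adjusted p ran from 0.00178 to 0.215. Without PC p4, 1 other gene passed, Mcm7 (adjusted p = 0.0393).

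Of the 38 genes, 1 was lower and 0 were higher in PC, against 3.57% and 3.69% of all genes tested. With the p number as a replicate block it was again 1 lower, against 5.6% of all genes, and 15 of the 38 then had an unadjusted p below 0.05, against 25.2% of all genes. Without the block 2 of the 38 did, against 21.1% of all genes. The log2 difference was below 0 for 34 of the 38 genes, with a median of -0.58 against 0.006 over all genes tested. Within each number, RACM was above PC for 23 of the 38 genes at p0, 34 at p2 and 33 at p4. Without both p4 libraries 33 of 38 differences were below 0 with a median of -0.39. With RACM p4 alone left out, so that PC p4 had no counterpart, 26 of 38 were above 0 and the median was 0.16. Values given below without RACM p4 keep PC p4 in the same way.

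Foxm1, the other named regulator of the mitotic programme, was at 9.01, 3.39 and 8.58 CPM in PC and 8.96, 12.1 and 31.7 CPM in RACM. The p0 libraries of the cell types were level, and the gap lay in p2 and p4. Its log2 difference of -1.33 ± 0.53 did not pass (edgeR adjusted p = 0.188), and it passed with no filter on low counts (adjusted p = 0.0293).

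At the ends of the G1 list stood Ccne1, cyclin E1, and Ccnd1, cyclin D1. Ccne1 was at 1.95, 9.88 and 5.00 CPM in PC and 3.24, 2.33 and 2.93 CPM in RACM (log2 difference 0.98 ± 0.58, edgeR adjusted p = 0.398). PC p2, where most of the other genes were lowest, was its highest library. Ccnd1 was at 9.18, 4.4 and 8.72 CPM in PC and 3.58, 12.5 and 29.7 CPM in RACM, so that the cell types overlapped (log2 difference -1.04 ± 0.64, adjusted p = 0.414). Of its exon bases, 23.4% are shared with a gene on the opposite strand, and counts made without strand cannot be assigned there.

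In S phase the ends were Rrm1, the large subunit of ribonucleotide reductase, and Mcm3, part of the replicative helicase. Rrm1 was at 29.9, 43.8 and 56.8 CPM in PC and 25.4, 38.8 and 66.1 CPM in RACM, with a log2 difference of 0.001 ± 0.35 that was on the other side of 0 after upper-quartile scaling (-0.05). Mcm3 was at 13.5, 9.48 and 19.9 CPM in PC and 15.0, 18.5 and 34.2 CPM in RACM (-0.66 ± 0.37, edgeR adjusted p = 0.373). For Pcna, the sliding clamp of DNA polymerase, the cell types were level at each number: 67.5, 64.9 and 109 CPM in PC against 69.6, 67.8 and 111 CPM in RACM.

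Among the mitotic genes every log2 difference was below 0, from -0.20 to -2.30, with a median of -0.67, and with RACM p4 left out the sum of the 22 genes turned to 0.08 above RACM on the log2 scale. Plk1, a kinase of mitotic entry, and Ube2c, which charges the anaphase-promoting complex with ubiquitin, had the smallest differences (-0.20 ± 0.74 and -0.20 ± 0.69), and both turned without PC p0, PC p2 or RACM p4 (0.10, 0.22 and 0.45 for Plk1, 0.099, 0.17 and 0.81 for Ube2c). Plk1 was at 2.50, 1.58 and 9.95 CPM in PC and 4.41, 2.45 and 9.22 CPM in RACM. Bub1b, a checkpoint kinase-like protein, was at 6.90, 5.98 and 9.76 CPM in PC and 8.89, 8.83 and 30.4 CPM in RACM (-1.09 ± 0.50, edgeR adjusted p = 0.255). Bub1, a kinase of the same checkpoint, was at 6.29, 3.16 and 14.7 CPM in PC and 6.13, 6.27 and 23.8 CPM in RACM (-0.58 ± 0.66). In Bub1b RACM p4 stood above the other 5 libraries, which lay between 5.98 and 9.76 CPM, and in Bub1 both p4 libraries were the highest. The sign of Bub1 turned without RACM p4 (0.38).

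The cytokinesis genes ran from Arhgap11a, a RhoA regulator, to Anln, the actin-binding scaffold anillin. Arhgap11a was at 13.5, 7.17 and 39.7 CPM in PC and 15.8, 14.3 and 63.4 CPM in RACM (log2 difference -0.63 ± 0.70). Anln was at 23.1, 10.8 and 44.4 CPM in PC and 25.2, 26.9 and 93.6 CPM in RACM (-0.90 ± 0.59). The sign of both turned without RACM p4 (0.42 and 0.008). Ect2, which activates RhoA at the division plane, and Kif20a, a kinesin of the midzone, had log2 differences of -0.89 and -0.72, and that of Kif20a was at 0.04 without RACM p4.

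The second comparison set the p numbers against each other, with cell type in the model. With 1 library per cell type and number, its p-values rest on how far PC and RACM disagreed, not on replicates of a number. Most of the 38 genes were highest in the p4 libraries of both cell types, and the difference was larger for mitotic than for S phase genes. In the edgeR F test none of the 38 passed, against 0.00555% of all genes tested (1 gene), while 30 of the 38 had an unadjusted p below 0.05, against 11.9% of all genes. DESeq2 called 22 of the 38, all higher at p4 than at p0, against 3.81% of all genes, and limma-voom called 14, against 0.944%. With no filter edgeR called 22, against 2.18% of all genes. The calls by edgeR were 16, 18 and 8 without PC p0, p2 and p4, and 9, 15 and 10 without RACM p0, p2 and p4, against 1.33%, 1.93%, 1.22%, 0.396%, 1.83% and 2.43% of all genes in the same order. These fits have 1 residual degree of freedom among the libraries before moderation. The p4 library was the highest in both cell types for 32 of the 38 genes, against 15.7% of all genes tested. The fitted log2 difference, p4 minus p0, was above 0 for 36 of the 38 with a median of 1.35, against -0.008 over all genes. Between p0 and p2 the median was -0.15.

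Ube2c (chromosome 2 from 164769898 to 164778822) had the smallest p of the 38. It was at 14.6, 11.6 and 55.0 CPM in PC and at 17.2, 13.8 and 61.9 CPM in RACM. Both p4 libraries were above the other 4, and RACM over PC was 1.18, 1.19 and 1.13 at the 3 numbers. The log2 difference was 1.88 ± 0.21 for p4 minus p0 (edgeR adjusted p of the p number = 0.0529, DESeq2 adjusted p = 1.57e-14). Of its exon bases, 22.8% are shared with Tnnc2 on the opposite strand. Arhgap11a followed with a log2 difference of 1.77 ± 0.26 (edgeR adjusted p = 0.0699, DESeq2 adjusted p = 2.14e-11).

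Mki67, which encodes the proliferation antigen Ki-67 (chromosome 7 from 135689784 to 135716361, minus strand), showed the largest difference of the 38. It was at 74.8, 52.5 and 216 CPM in PC and 59.7, 108 and 451 CPM in RACM, with a log2 difference of 2.17 ± 0.34 for p4 minus p0 (edgeR adjusted p = 0.089, DESeq2 adjusted p = 1.57e-13). Per library p4 was 2.89-fold p0 in PC and 7.55-fold in RACM. Top2a, the topoisomerase that untangles chromosomes, was at 40.1, 29.2 and 92.9 CPM in PC and 36.3, 50.0 and 184 CPM in RACM (1.75 ± 0.28, edgeR adjusted p = 0.0893). RACM over PC was 0.798 and 0.906 for Mki67 and Top2a at p0, and 2.09 and 1.98 at p4.

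Several cyclins and kinases of mitosis had their lowest value at p2 and their highest at p4 in both cell types. Ccna2, cyclin A2, was at 20.0, 2.71 and 52.4 CPM in PC and 24.3, 16.9 and 70.7 CPM in RACM, and PC p2, with 48 counts, was far below the other 5 libraries. Ccnb1, cyclin B1, was at 7.56, 3.67 and 20.8 CPM in PC and 7.24, 4.83 and 25.8 CPM in RACM (1.64 ± 0.31 for p4 minus p0, edgeR adjusted p = 0.0881). Cdk1, the kinase that cyclins A and B activate, was at 9.12, 5.64 and 17.5 CPM in PC and 11.8, 7.64 and 33.7 CPM in RACM (1.24 ± 0.29, edgeR adjusted p = 0.103). These 3 genes were lowest at p2 in both cell types, as were other mitotic genes, among them Ccnb2, Plk1, Aurka and Ube2c. Aurka and Aurkb, kinases of spindle poles and centromeres, had log2 differences of 1.43 ± 0.48 and 1.90 ± 0.45 (DESeq2 adjusted p = 0.0188 and 0.00176).

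All 6 spindle genes had their highest value at p4 in both cell types. Kif11, the kinesin that pushes spindle poles apart, was at 17.6, 7.17 and 47.0 CPM in PC and 17.3, 19.8 and 78.7 CPM in RACM (1.76 ± 0.34, edgeR adjusted p = 0.0995). Cenpf, a large kinetochore protein, was at 27.6, 7.51 and 58.8 CPM in PC and 19.4, 19.5 and 107 CPM in RACM (1.69 ± 0.40). Both show a low PC p2 library beside an RACM p2 library level with RACM p0. Cenpe, the kinetochore kinesin, Birc5, survivin of the chromosomal passenger complex, Bub1 and Bub1b had log2 differences from 1.17 to 1.56. DESeq2 called 5 of the 6, and Bub1b was the exception (adjusted p = 0.0732).

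Foxm1 and Mybl2 were the mitotic genes without p4 as the highest library in both cell types. In RACM their p4 library was 3.54-fold and 2.75-fold p0, and in PC 0.952-fold and 1.21-fold. For Foxm1 the log2 difference of 0.80 ± 0.49 turned to -0.06 without RACM p0.

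S phase genes shared the direction with smaller differences. All 10 were highest at p4 in both cell types, and their p4 minus p0 differences ran from 0.52 for Mcm6 to 1.53 for Mcm7, with a median of 1.02 against 1.47 for the mitotic genes. DESeq2 called 5 of the 10 (Mcm7, Pcna, Rrm1, Rrm2 and Tyms), against 17 of the 22 mitotic genes, and limma-voom 1 and 13. Rrm2, the small subunit of ribonucleotide reductase that is made anew in each S phase, was at 19.4, 11.2 and 48.7 CPM in PC and 17.2, 20.9 and 50.9 CPM in RACM (1.44 ± 0.29, DESeq2 adjusted p = 1.35e-05). Mcm7 was at 8.12, 7.96 and 36.2 CPM in PC and 17.4, 20.5 and 29.6 CPM in RACM, 1 of 2 genes with PC p4 as the highest library (the other was Plk1). Of its exon bases, 12.6% are shared with other genes. Tyms, thymidylate synthase, was at 10.7, 19.2 and 29.6 CPM in PC and 19.9, 28.8 and 37.9 CPM in RACM. The helicase genes Mcm2, Mcm3, Mcm4 and Mcm5 had log2 differences between 0.87 and 1.39 and did not pass by DESeq2 (adjusted p from 0.0513 to 0.118).

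The G1 list was mixed, with a median p4 minus p0 difference of 0.64 and the largest, 1.24 ± 0.72, for Ccnd1. Ccnd2 and Cdk2 differed little between numbers. Ccnd2, cyclin D2, was at 308, 284 and 305 CPM in PC and 287, 264 and 249 CPM in RACM. Cdk2, the partner of E-type cyclins, was at 26.2, 24.7 and 22.2 CPM in PC and 27.8, 22.2 and 20.5 CPM in RACM. Both had p4 minus p0 differences below 0 (-0.11 ± 0.14 and -0.34 ± 0.22). E2f1, an activating E2F factor, and Ccne2, cyclin E2, stood highest at p4 in both cell types, with differences of 1.13 ± 0.40 and 0.83 ± 0.39. DESeq2 and limma-voom called none of the 6, and 1 (E2f1) had an unadjusted p below 0.05 by edgeR.

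**Figure D2:**
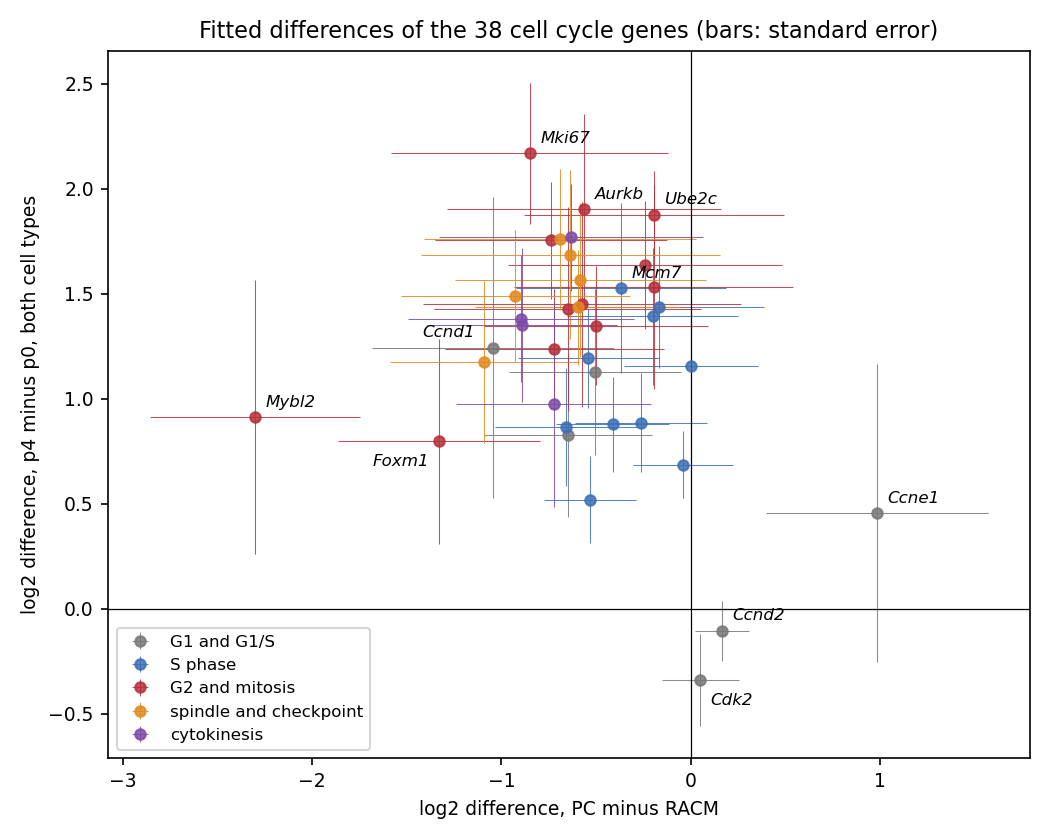
Fitted log2 differences of the 38 genes, PC minus RACM on the horizontal axis and p4 minus p0 on the vertical axis, with bars of 1 standard error and colours by list. Of the 38 points, 36 lie above 0 and 34 lie left of 0. Mybl2 stands apart on the left at -2.30, and Ccnd2 and Cdk2 lie below 0 at -0.11 and -0.34.

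Summed levels set S phase against mitosis. The 10 S phase genes summed to 219, 239 and 411 CPM in PC and to 249.5, 291 and 494 CPM in RACM. The 22 mitotic genes summed to 325, 190.4 and 793 CPM in PC and to 323, 371 and 1479 CPM in RACM. The S phase sum at p4 was thus 1.88-fold p0 in PC and 1.98-fold in RACM, while the mitotic sum was 2.44-fold and 4.58-fold. At p0 the mitotic sums of the cell types were level (RACM over PC 0.993), and at p2 and p4 RACM was 1.95-fold and 1.87-fold PC.

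The sums parted at different numbers in the cell types. In PC the mitotic sum at p2 was 0.585-fold p0 while the S phase sum was 1.09-fold, and in RACM the folds were 1.15 and 1.17, with the gap at p4. The ratio of mitotic to S phase sums was 1.49, 0.797 and 1.93 in PC and 1.29, 1.27 and 2.99 in RACM. Mki67 alone made up between 18.5% and 30.5% of the mitotic sum. Without Mki67 and Top2a the sum was 210.4, 108.6 and 484 CPM in PC and 227, 213 and 844 CPM in RACM, with the same low PC p2 and high RACM p4. The G1 genes summed to between 314 and 356 CPM in all 6 libraries, most of it Ccnd2.

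Over the 3 libraries of each cell type, the log2 ratio of PC to RACM was -0.62 for the mitotic sum and -0.25 for the S phase sum, with a pooled SD between libraries of 1.13 and 0.51. The ratio of mitotic to S phase sums differed by -0.37, with an SD of 0.68. Each of these was smaller than that spread, in which the p numbers take part. Within the numbers p0, p2 and p4 the S phase ratio was -0.19, -0.28 and -0.27, a mean of -0.25 with an SD of 0.05. The RACM sum was thus above the PC sum by a similar amount each time, but single genes differed. RACM was above PC for 7 of the 10 genes at p0, 9 at p2 and 9 at p4. RACM over PC was 2.14, 2.57 and 0.819 for Mcm7, and 1.03, 1.04 and 1.02 for Pcna. The mitotic ratio was 0.01, -0.96 and -0.90 (SD 0.54), level at p0 and lower in PC at p2 and p4. The difference in the ratio of mitotic to S phase sums was 0.20, -0.68 and -0.63 (SD 0.49), so its sign was not shared by the numbers. Without both p4 libraries the means were -0.48 for the mitotic sum, -0.24 for the S phase sum and -0.24 for their ratio, and with RACM p4 alone left out 0.08, 0.04 and 0.04. No p is given for these sums.

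**Figure D3:**
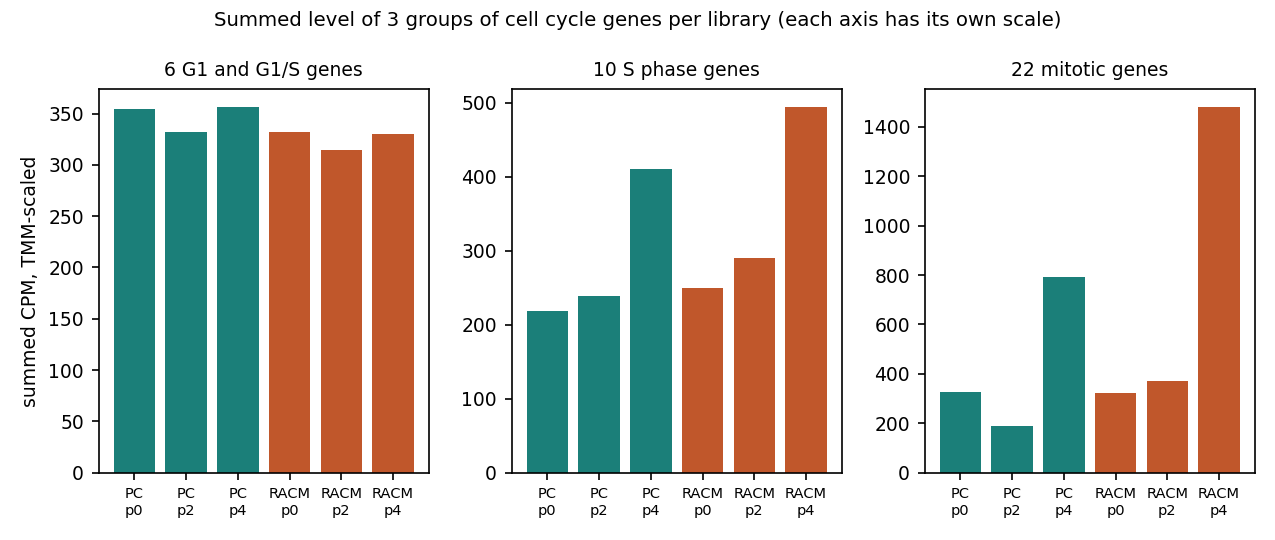
Summed CPM of the 6 G1, 10 S phase and 22 mitotic genes in each library, 1 bar per library, each panel with its own axis from 0. The G1 sums stay between 314 and 356 CPM, the S phase sums reach 411 and 494 CPM at p4, and the mitotic sums range from 190.4 CPM in PC p2 to 1479 CPM in RACM p4.

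The third comparison asked whether the difference between cell types changed along the p number. None of the 38 genes, and none of all genes tested, passed the edgeR test of the product of cell type and p number. Of the 38, 1 had an unadjusted p below 0.05, against 4.22% of all genes, and DESeq2 and limma-voom called none of the 38. That gene was Ccnd1 (unadjusted p = 0.00967), whose RACM values of 3.58, 12.5 and 29.7 CPM stood beside 9.18, 4.4 and 8.72 CPM in PC. The counts depended on single PC libraries. Without PC p0, 2 of the 38 passed (Ccna2 and Mcm7), against 2.59% of all genes, both with PC minus RACM rising along the number. Without PC p2 1 passed (Ccnd1), against 1.03%, with PC minus RACM falling. Without PC p4 9 passed, among them Mki67, Top2a, Cenpf and Kif11, against 1.68%, all with PC minus RACM falling. None of the 38 passed with any 1 RACM library left out. The median over the 38 was 0.24, -0.14 and -0.63 per unit of the number without PC p0, p2 and p4. It was -0.58, -0.13 and 0.19 without RACM p0, p2 and p4. The direction thus turned with the library left out.

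Markers of other cells moved with these libraries, and all 8 fibroblast markers and all 9 macrophage markers were highest in RACM p4. Between p0 and p4 the summed fibroblast markers were 2.57-fold in PC and 6.70-fold in RACM, beside 2.44-fold and 4.58-fold for the mitotic genes. The macrophage sum was 1.42-fold and 4.42-fold, and the sum of smooth muscle and pericyte markers 1.08-fold and 3.57-fold. In PC p2, where mitotic genes were lowest, the macrophage sum was 0.378-fold and the endothelial sum 0.471-fold that of PC p0. The smooth muscle and pericyte sum was 0.629-fold and the fibroblast sum 1.13-fold. Acta2 was the largest part of the smooth muscle and pericyte sum in PC, at 481, 301 and 533 CPM. In RACM it was at 82.1, 99.2 and 291 CPM. Of the 8 markers in that list, 7 were lower at p2 than at p0 in PC. The endothelial sum was 83.1, 39.2 and 104 CPM in PC and 126, 121 and 181 CPM in RACM. In RACM only 3 of its 8 markers were higher at p4 than at p0, with a median fold of 0.863. Among them Tek was at 18.3, 35.2 and 83.4 CPM. In PC 5 of the 8 were higher at p4 than at p0. The sum of 5 markers of red blood cell precursors was lowest at p2 in both cell types, at 63.9, 0.395 and 18.6 CPM in PC and 96.8, 13.2 and 66.3 CPM in RACM. Each of the 5 was at its lowest in PC p2, where Hba-a2 and Hbb-bt were at 0. At p0, where the mitotic sums of the cell types were level, the fibroblast sum of RACM was 1.89-fold and the macrophage sum 6.09-fold that of PC. The part of these cells in the differences between libraries was not tested.

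**Figure D4:**
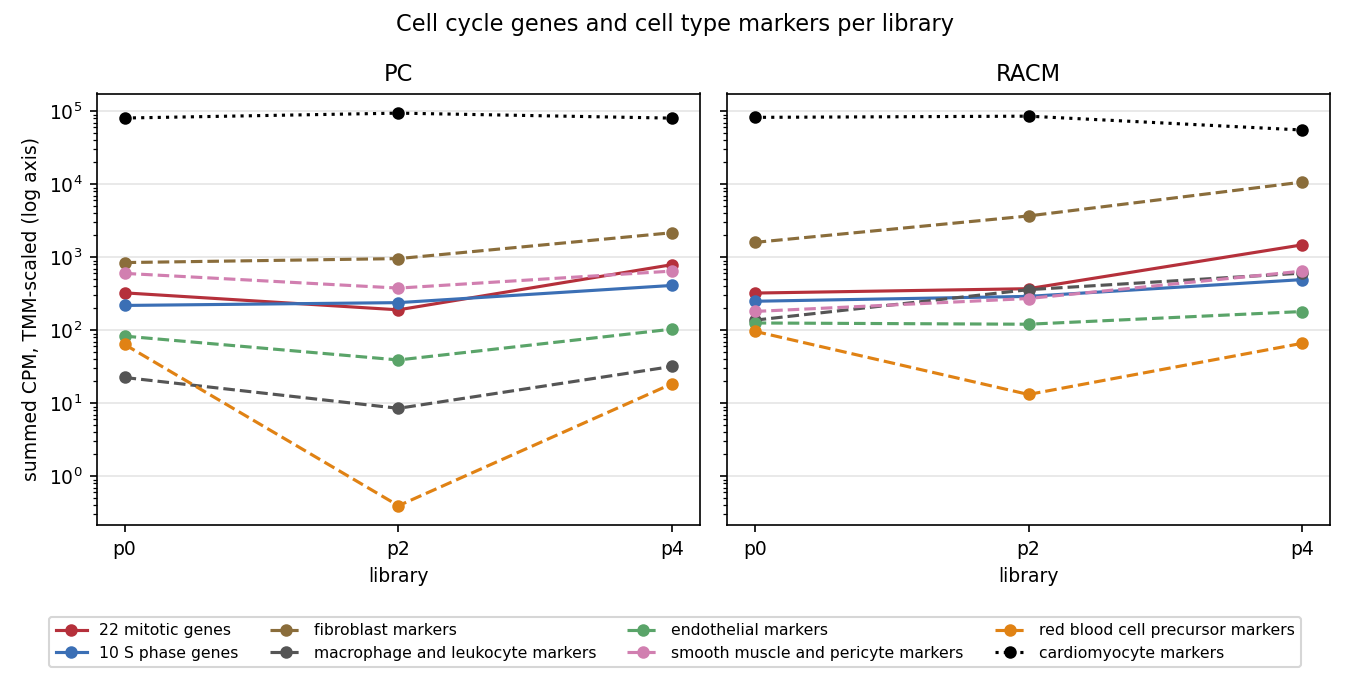
Summed CPM (log axis) of the mitotic and S phase genes (solid lines) and of marker lists of other cells (dashed) and of cardiomyocytes (dotted) in the p0, p2 and p4 libraries of PC and RACM. In RACM the fibroblast line reaches 10700 CPM at p4 while the cardiomyocyte line is at 55310 CPM, and in PC the mitotic, macrophage, endothelial, smooth muscle and red blood cell precursor lines are lowest at p2.

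Other genes of the cell cycle were read from 7 further lists with 123 genes, of which 120 were tested. In PC against RACM, 2 were higher and 3 lower, against 3.69% and 3.57% of all genes tested, so neither count was above that share. Myc, a transcription factor that drives entry into the cycle, was at 14.1, 5.81 and 10.1 CPM in PC and 28.9, 41.7 and 64.9 CPM in RACM (log2 difference -2.17 ± 0.38, edgeR adjusted p = 0.0117). Cdkn1c, the CDK inhibitor p57, was at 9.96, 6.26 and 4.43 CPM in PC and 25.4, 18.0 and 17.2 CPM in RACM (-1.55 ± 0.35, adjusted p = 0.0293). Cks1b, a small subunit of CDK complexes, was lower in PC as well (-0.91 ± 0.22, adjusted p = 0.0419). The call of Myc was lost without both p4 libraries (adjusted p = 0.054). Cdkn1c kept its call without PC p0 or RACM p4 and lost it without any 1 of the other 4 libraries (adjusted p from 0.0645 to 0.089), and Cks1b lost it without any 1 of the 6 (from 0.0508 to 0.127).

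The other 2 were higher in PC. Ccnd3, cyclin D3, was at 78.0, 57.0 and 54.6 CPM in PC and 36.5, 35.3 and 34.8 CPM in RACM (0.83 ± 0.19, edgeR adjusted p = 0.0301), and Zwint, a kinetochore protein, was at 117, 103 and 122 CPM in PC and 79, 67.4 and 66.3 CPM in RACM (0.68 ± 0.15, adjusted p = 0.0317). Ccnd3 kept the call when PC p4 was left out and lost it when any 1 of the other 5 libraries was (adjusted p from 0.0532 to 0.126). Zwint kept it when RACM p0 was left out and lost it with any 1 of the other 5 (from 0.0548 to 0.153). Cenpa, the centromeric histone, did not pass (1.12 ± 0.37, adjusted p = 0.113). It did with the replicate block (adjusted p = 0.00627) and without RACM p4 (adjusted p = 0.0218). E2f6, a repressive E2F factor, did not pass (0.63 ± 0.18, adjusted p = 0.067), but did so with the block (adjusted p = 0.0247) and without RACM p0 (adjusted p = 0.0303).

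Along the p number edgeR called none of the 120, and 59 had an unadjusted p below 0.05, against 11.9% of all genes tested. DESeq2 called 42, against 3.81%, and limma-voom 11, against 0.944%, each higher at p4 than at p0. The p4 minus p0 median was 0.84 over the 120, 1.65 for 26 spindle, centromere and kinesin genes, 1.08 for 8 cytokinesis genes, 0.97 for 29 mitotic regulators and 0.65 for 32 replication genes. It was -0.10 for 12 G1 genes, 0.14 for 6 CDK inhibitors and 0.03 for 7 other E2F factors. Stil, a centriole gene, had a difference of 2.41 ± 0.37, Ckap2, a spindle protein, 2.10 ± 0.31, Uhrf1, which copies DNA methylation, 2.20 ± 0.34, and Hmmr, a spindle assembly factor, 1.77 ± 0.30 (DESeq2 adjusted p = 3.98e-06, 7.47e-07, 6.39e-06 and 5.28e-09). Prc1 and Cit of cytokinesis stood at 1.60 and 1.88, Cdca8 of the passenger complex at 1.39 and Dbf4, activator of an origin-firing kinase, at 1.56. Among the CDK inhibitors Cdkn3, a phosphatase acting on CDKs, went with the mitotic genes at 1.86 ± 0.55 (DESeq2 adjusted p = 0.00134), while Cdkn1c was at -0.85 ± 0.29. E2f7 and E2f2 were at 1.29 and 1.93, and the pocket protein genes Rbl1 and Rbl2 at 0.84 and -0.66.

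The remaining genes chosen by rule did not pass between the cell types by edgeR. Orc6 and Orc1 of the origin recognition complex had log2 differences of -0.75 and -1.60 and Sgo1, a protector of centromere cohesion, one of -1.34. Kif23 and Cit of cytokinesis had -1.33 and -1.25, and Cdkn2d and E2f3 had 0.74 and 0.43.

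**Figure D5:**
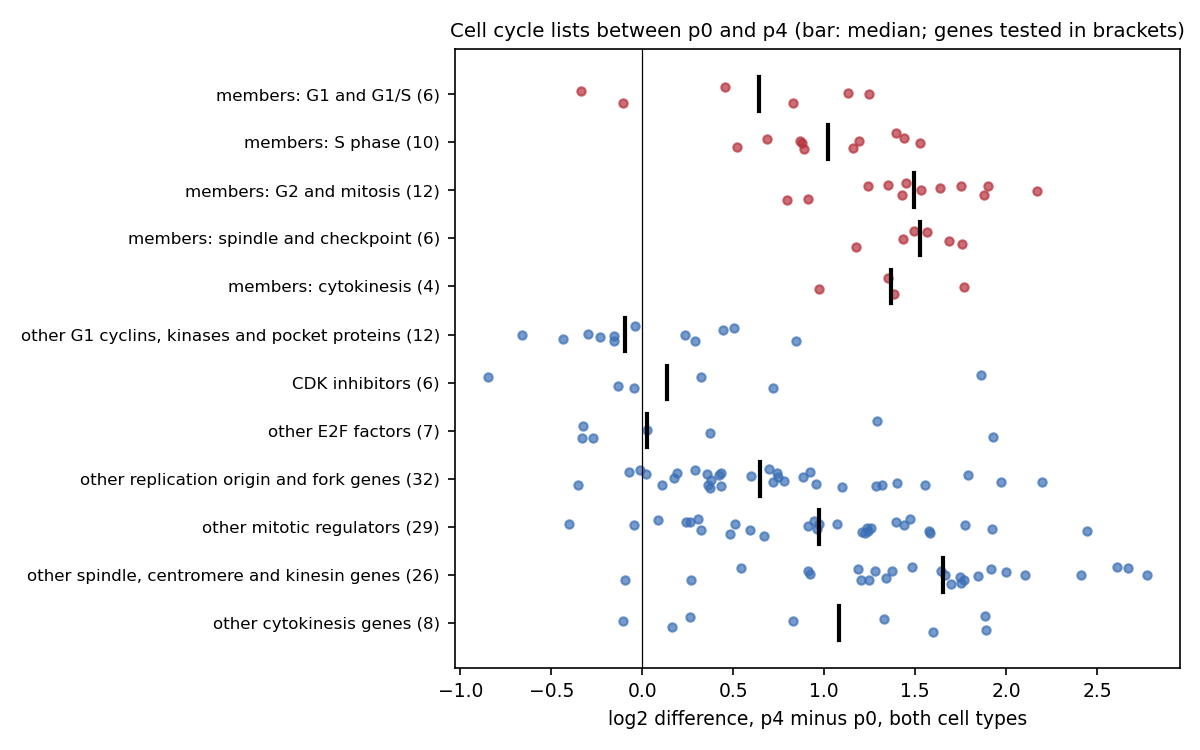
Fitted log2 difference, p4 minus p0, of each tested gene in the 5 lists of the 38 genes (red) and in 7 further cell cycle lists (blue), 1 point per gene with a bar at the list median and the number of genes in brackets. Medians lie at 1.49 and 1.53 for the G2 and spindle lists of the 38 and at 1.65 for the further spindle list, and near 0 for the further G1, CDK inhibitor and E2F lists.

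Levels compared between genes are given per exon length. As mean CPM per kilobase of exon in PC and RACM, Pcna (33.6 and 34.5) and Ccnd2 (31.7 and 28.4) were the highest of the 38. Mki67 (11.4 and 20.5), Ube2c (10.4 and 11.9), Rrm2 (9.53 and 10.7) and Ccnb2 (7.79 and 11) followed, and Mybl2 (0.201 and 0.994) was the lowest in both. The order of genes between Mki67 and Ccnb2 rests on means over libraries that differ by several fold and is a description. Exons shared with another gene made up 29.3% of Kif20a, 17.4% of Ccne2 and 12.5% of Ccna2, and at most 7.9% of each other gene not named above.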

How the data were processed

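RNA-seq libraries of sorted PC and RACM (3 each) were analysed, and the ATAC-seq samples of the series were not used here. The authors deposited unnormalized fragment counts, obtained per gene from mm10 exons with featureCounts 2.0.1, per the file headers, with neither a strand option nor one for reads that map to several places. Trimmomatic and HISAT2 are named without versions, and edgeR as well, per the submitters' processing notes. RNA was amplified with a NuGEN kit before sequencing, per the labels' protocols.

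Low genes were removed with filterByExpr, grouped by cell type (count of 10, total of 15), which kept 18015, and CPM were computed with TMM scaling. Tests used edgeR 4.0.16 (glmQLFit and glmQLFTest, 2-sided, R 4.3.3) on the whole table, with Benjamini-Hochberg adjustment over all 18015 genes and a threshold of 0.05. The models were cell type alone, the p number as a factor with cell type, and the product of cell type and p number. Results were recomputed with RLE or upper-quartile scaling, no filter, a minimum of 5 CPM in the 3 libraries of either cell type, DESeq2 1.42.0, limma-voom (limma 3.58.1), each library left out, the p number as a block or a linear term and, added after seeing the data, both p4 libraries left out. The steps were also run on simulated counts with known changes, planted only in genes above the median level, so that run does not cover lower genes.

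The members and lists were chosen with earlier results of these data known. Each of the 38 genes is named. Values in every library are given for genes that passed, for the ends of each list by PC minus RACM, and for genes the results turn on, the last chosen after their values were seen. 1 marker of red blood cell precursors is not reported here and was left out of its sum. From each further list the 2 genes of smallest p in each of 2 tests and the first called gene against the list's median are named. Whether the same numbers in PC and RACM pair the libraries was not settled, and no label states a pairing. Deviations from the mean of the cell type had correlations over genes of 0.156 (p0), 0.234 (p2) and 0.237 (p4) between libraries of the same number. Between PC and RACM libraries of different numbers they ran from -0.185 to -0.0015. The deviations cancel out over the libraries of a cell type, so these values are not independent. The main test of PC against RACM had no block, and the block was an alternative. No libraries were near-identical (chi-square per degree of freedom between libraries of a cell type from 26.2 to 65.6). There was 1 pooled library per cell type and number, so no number was replicated within a cell type. In the main test of PC against RACM, p-values measure the spread between libraries of a cell type, in which the p numbers take part. With the p number as a factor or block, they measure how far PC and RACM disagree in their differences between numbers. That is not a spread between replicate pools of the same number. Of 55487 gene IDs, 55141 matched a symbol, and rows without one held 0.0106% of counts.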

Additional observations from a re-analysis of the deposited data

How the results depend on the processing

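Depth limits the low genes, above all Mybl2 with 14 to 20 counts per PC library, and 3 libraries per cell type limit every test. With 1 library per cell type and number, the third comparison has 2 libraries beyond its 4 coefficients. The causes of the changes below were not tested.

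In PC against RACM, 1 of the 38 genes was called. The count was 2 with no filter and 0 with the filter of 5 CPM, by limma-voom and without both p4 libraries, and it ran from 0 to 1 when 1 library was left out. The replicate block gave 1 again. Over all genes, 1309 became 2339 with no filter, 2304 by DESeq2, 734 without both p4 libraries and 2082 with the replicate block, and from 511 to 1338 when 1 library was left out.

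For the p number, 0 of the 38 became 22 with no filter, 6 with the filter of 5 CPM, 22 by DESeq2 and 14 by limma-voom, and 8 to 18 when 1 library was left out. Over all genes, 1 became 720, 57, 686 and 170 under the same settings, 6 with the number as a linear trend (0 of the 38), and 77 to 458 when 1 library was left out. For the change of the difference along the number, 0 of the 38 became 0 to 9, and 0 of all genes 1 to 500, when 1 library was left out, and all genes gave 111 with no filter and 32 by DESeq2.

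When 1 library was left out, the median log2 difference of the 38 ran from -1.22 to 0.16 for PC minus RACM and from 1.01 to 1.54 for p4 minus p0. The log2 ratio of PC to RACM ran from -1.17 to 0.081 for the mitotic sum, from -0.53 to 0.045 for the S phase sum and from -0.65 to 0.037 for the ratio of mitotic to S phase sums. In PC minus RACM, 24 of the 38 genes had the other sign without RACM p4 (with PC p4 kept), 5 each without PC p0 and without PC p2, and at most 2 under each other alternative. Among the 16 genes whose fitted difference is given or that were followed singly, the sign turned within -1.71 to 0.29 for Ccna2, -1.39 to 0.45 for Plk1, -1.70 to 0.45 for Mki67, -1.35 to 0.38 for Bub1, -1.52 to 0.0078 for Anln, -1.60 to 0.42 for Arhgap11a, -1.24 to 0.81 for Ube2c, -1.02 to 0.037 for Kif20a and -0.26 to 0.44 for Rrm1. Rrm1, at 0.001, was also at -0.016 with RLE scaling, -0.052 with upper-quartile scaling, -0.069 with the filter of 5 CPM and -0.016 by DESeq2. In p4 minus p0, Ccnd1 ran from -0.013 to 2.99, Ccne1 from -0.44 to 1.71 and Foxm1 from -0.062 to 1.81. Over the alternatives of the p number test, single genes gave 140 changes from not passing to passing and 3 changes of sign.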
